A study of Mus musculus with 4 samples.

Results

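The ADP-ribosyltransferase genes Art1, Art3, Art4 and Art5 were taken by symbol from the 36814 rows of the deposited gene table, which held 1 row for each of these 4 genes. The family was chosen by its RPKM difference between Hnrnpu mutant and control ventricles, which was already known, so its levels, folds and deposited p-values are given here as a description. RNA sequencing was done on heart ventricles, with the atria removed, of mice at postnatal day 14. The 2 Hnrnpu mutants came from crossing a conditional Hnrnpu allele with Ckmm-Cre, a Cre transgene driven by the muscle creatine kinase promoter and so active in striated muscle, while other cells of the ventricle are not its target. The 2 controls were labelled wild type, and the labels do not say whether they carried the conditional allele or the transgene. Each group held 1 male and 1 female on a mixed C57BL/6 and 129 S4 background, and whether the animals were littermates is not given. The targeted gene, Hnrnpu, was listed at 15.2 RPKM in mutant and 32.7 RPKM in control ventricles and was not called (adjusted p = 0.438 in the authors' deposited table), and which of its exons the allele removes is not given.

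The family, also called ecto-ADP-ribosyltransferases, takes NAD as substrate, and its active members join the ADP-ribose part to amino acids of proteins on the cell surface or outside the cell. Art1 is an arginine-specific enzyme of skeletal and heart muscle that is held in the membrane by a glycosylphosphatidylinositol (GPI) anchor, and integrin alpha 7 is a known substrate in mouse muscle cells. Art3 and Art4 are also GPI-anchored, but their human forms lack the amino acid motif of the arginine-specific enzymes and no transferase activity is established for them. Human ART4 carries the Dombrock blood group antigens of red blood cells. Art5 stands apart from the membrane-bound members, since its human form is described as secreted. Surface Art2 enzymes of mouse T cells modify the ATP receptor P2rx7.

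The promoter stretches of the members are shown because Art1 was lower in the mutant and Art3 and Art4 were higher. A second reason is that Art1 lies side by side with Art5, which was not called. Each run holds 250 bases before and 50 bases after a RefSeq start in GRCm38.p6, and capitals mark the E-box CAGCTG, a site type of muscle basic helix-loop-helix factors, and the TATA box TATAAA, on either strand. For Art3, which has 3 listed starts, the most upstream is shown.
Art1 (chr7:102101493-102101792, plus strand): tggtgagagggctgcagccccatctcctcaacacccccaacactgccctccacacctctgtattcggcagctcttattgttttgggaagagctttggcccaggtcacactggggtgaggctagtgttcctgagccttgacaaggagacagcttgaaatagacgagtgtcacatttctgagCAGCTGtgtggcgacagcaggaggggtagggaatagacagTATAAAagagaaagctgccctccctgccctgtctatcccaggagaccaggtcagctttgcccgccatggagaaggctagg
Art5 (chr7:102100180-102100479, minus strand): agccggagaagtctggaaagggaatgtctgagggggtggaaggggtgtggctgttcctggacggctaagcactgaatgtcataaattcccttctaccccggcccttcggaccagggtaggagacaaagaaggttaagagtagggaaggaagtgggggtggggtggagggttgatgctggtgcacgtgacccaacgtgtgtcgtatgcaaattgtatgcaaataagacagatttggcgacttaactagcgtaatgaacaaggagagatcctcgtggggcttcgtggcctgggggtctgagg
Art3 (chr5:92331577-92331876, plus strand): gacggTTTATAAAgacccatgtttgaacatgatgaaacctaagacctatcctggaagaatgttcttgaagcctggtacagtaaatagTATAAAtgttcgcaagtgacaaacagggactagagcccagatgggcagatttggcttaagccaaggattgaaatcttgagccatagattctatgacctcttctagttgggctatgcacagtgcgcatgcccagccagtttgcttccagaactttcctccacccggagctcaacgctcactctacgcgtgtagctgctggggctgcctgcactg
Art4 (chr6:136857551-136857850, minus strand): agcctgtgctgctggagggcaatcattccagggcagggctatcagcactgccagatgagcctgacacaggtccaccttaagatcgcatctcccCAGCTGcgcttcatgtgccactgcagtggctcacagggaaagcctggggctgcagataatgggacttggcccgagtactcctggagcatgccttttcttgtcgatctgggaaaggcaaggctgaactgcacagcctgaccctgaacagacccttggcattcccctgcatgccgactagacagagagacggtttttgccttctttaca

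In the Art1 promoter a TATA box began at position -30 and an E-box at -70, counted on the coding strand with the start at 1. The shown Art3 stretch held 3 matches to TATAAA, at -245, -243 and -163, of which the first pair overlap on opposite strands, and no CAGCTG. The middle Art3 start, not printed, had TATAAA at -30 and -89, and the most downstream start had neither motif. Art4 had CAGCTG at -157 and no TATAAA, and Art5 had neither. CAGCTG was present in 16.3% and TATAAA in 13.6% of the 32851 promoter stretches of the same length. The MCAT letters CATTCC, a site type of TEAD factors, matched at 1 place in Art5 and before each of the other Art3 starts, and at 2 places in Art4, with a background of 14.7%. The letters CCAAT, found in 37.4% of all stretches, were in none of the members' stretches. These are letter matches, and binding was not measured.

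The members had unlike levels, and the mutant and control ventricles had them in a different order. In the Hnrnpu mutant ventricles the order was Art3, Art4, Art1, Art5, and in control ventricles it was Art1, Art3, Art4, Art5, all on the RPKM scale, a read number scaled by the length of the gene model and by depth. Each group has a single RPKM value for the 2 animals, so no level has a spread over animals, and whether neighbours in either order differ beyond that spread could not be tested. In ventricle tissue as a whole, fewer cells of a type and less RNA per cell cannot be told apart. By the adjusted p-value in the authors' deposited table, with a threshold of 0.05, 3 of the 4 members were called, where 3.51% of the 24454 tested rows were called. Of the members 2 were higher in the mutant, against 2.03% of tested rows, and 1 was lower, against 1.48%. That count was known when the family was chosen.

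Art1 is on the plus strand of chromosome 7 from 109250257 to 109259662 (mm9, as for all positions of genes below). Its level was 1.20 RPKM in mutant ventricles and 17.8 RPKM in control ventricles, which is 14.8-fold lower in the mutant. Its log2 fold change in the authors' deposited table was -3.89, with an adjusted p of 7.11e-09. An interval from the implied error, which is the deposited log2 fold change divided by the normal deviate of the deposited p, ran from -5.02 to -2.76 (95%). The control value was above that of 95.7% of tested rows or equal to it, and the mutant value above or equal to 57.2%. Of 11292 rows with a mean of at least 1 RPKM, 7 had a log2 fold change as low as that of Art1 or lower, Art1 included. Over all 24454 tested rows, which take in genes at very low levels, 864 did.

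Art3 is on the plus strand of chromosome 5 from 92760853 to 92843654. It stood at 53.0 RPKM in mutant ventricles and 11.0 RPKM in control ventricles, 4.81-fold higher in the mutant. The authors' deposited table puts its log2 fold change at 2.27 (implied 95% interval from 1.13 to 3.41), with adjusted p = 0.00589. Among rows with a mean of at least 1 RPKM, 180 had a log2 fold change at least as high, and over all tested rows 3243 did.

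Art4, which lies on chromosome 6, minus strand, from 136796972 to 136806254, was listed at 5.88 RPKM in mutant ventricles and 1.15 RPKM in control ventricles. It was thus 5.11-fold higher in the mutant, with a log2 fold change of 2.35 (implied 95% interval from 1.28 to 3.42) and adjusted p = 0.00144 in the authors' deposited table. The folds of Art3 and Art4 lay close together although their levels did not: Art3 was 9.01 times the level of Art4 in mutant and 9.57 times in control ventricles.

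Art5 lies on chromosome 7, minus strand, from 109245393 to 109251359. At 0.472 RPKM in mutant ventricles and 0.749 RPKM in control ventricles, it had the lowest level of the family in both groups. The authors' deposited table puts its log2 fold change at -0.66 (adjusted p = 0.947). The implied 95% interval, from -2.28 to 0.95, holds both lower and higher levels.

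**Figure D1:**
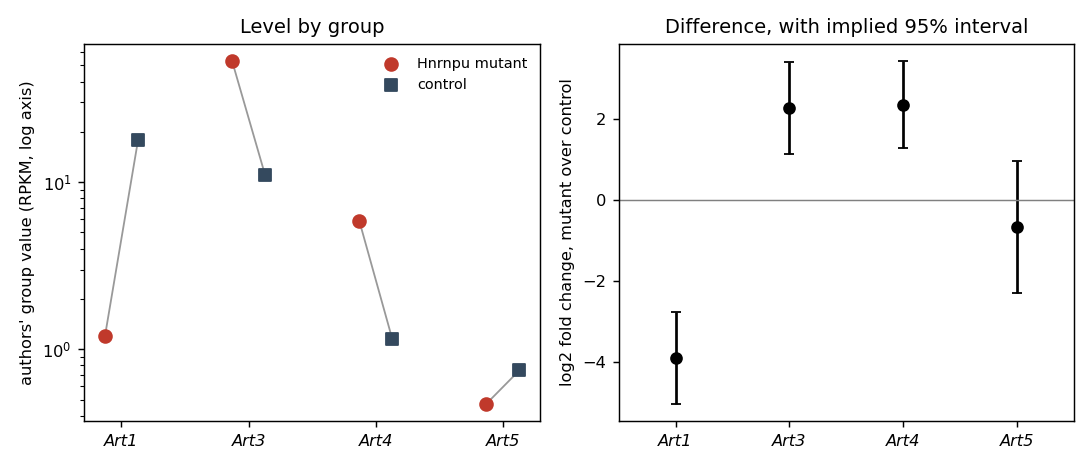
Left, the authors' group value of each member in RPKM on a log axis, with circles for Hnrnpu mutant and squares for control ventricles; each point is 1 deposited value for the group. Right, the log2 fold change of mutant over control with the 95% interval from the implied error. Art1 stood at 1.20 RPKM in mutant and 17.8 RPKM in control, Art3 at 53.0 RPKM in mutant and 11.0 RPKM in control, and Art4 at 5.88 RPKM in mutant and 1.15 RPKM in control, while the Art5 interval spans 0.

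Added over the family, the level was 60.6 RPKM in mutant and 30.7 RPKM in control ventricles, and its make-up differed. Art1 made up 1.98% of that sum in mutant and 58% in control ventricles. Art3 made up 87.5% in mutant and 35.8% in control ventricles, and Art4 9.71% in mutant and 3.75% in control ventricles. Art5 held 0.779% in mutant and 2.44% in control ventricles. Put as a ratio, Art3 was 44.2 times the level of Art1 in mutant and 0.618 times in control ventricles.

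The number of reads behind these values is not stated, and a stand-in was made from the worth of 1 read in small RNA genes and the exonic length of a later annotation (GENCODE M21). By it, Art1 had about 376 to 515 reads in the mutant libraries together and 2489 to 2922 in the control libraries. For Art5 the stand-in gave 108 to 149 reads in mutant and 77 to 90 in control, fewer than for any other member in either group. Art3 had 23231 to 31863 in mutant and 2153 to 2528 in control, and Art4 1650 to 2263 in mutant and 144 to 169 in control. These ranges hold for the steps found and not for the authors' unknown gene lengths, and the mutant libraries together came out 2.44 times as deep as the control libraries.

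No near-identical sequence was found between the members. No stretch of 36 bases on either strand was common to the GENCODE M21 transcripts of any 2 of Art1, Art3, Art4, Art5 and Art2b. Aligned coding bases were 54.8% to 59.4% identical between members, highest for the neighbours Art1 and Art5. The coding length was 975 bases for Art1, 1224 for Art3, 900 for Art4 and 927 for Art5. Art3 has 19 annotated transcripts against 1 for Art4, and values per isoform were not analysed here.

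Position adds a limit for Art1 and Art5. In the deposited table their spans share 1103 bases on opposite strands, out of 9406 for Art1 and 5967 for Art5. Use of strand in counting is not given in the sources used here, so reads in the shared bases cannot be told apart. In the later RefSeq annotation the spans of Art1 and Art5 do not overlap. The Art5 promoter stretch shown above lies before the Art1 start there, whereas the deposited Art5 span reaches past the deposited Art1 start. The shown stretch may thus not be at the start of the Art5 gene model behind the deposited value.

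Both outer neighbours of the Art1 and Art5 genes were lower in mutant ventricles. Chrna10, which codes for a nicotinic acetylcholine receptor subunit of inner ear hair cells, lies 117 bases past the end of Art1 on the other strand. It fell to 0.0159 RPKM in mutant ventricles, against 0.269 RPKM in control ventricles (log2 fold change -4.08, adjusted p = 0.00652, from the authors' deposited table). The read stand-in for Chrna10 was 4.7 to 6.4 in mutant and 35 to 41 in control, and its implied 95% interval was wide, from -6.15 to -2.01. The later RefSeq annotation has the Art1 span reaching over Chrna10, and the part of Art1 reads in the Chrna10 value was not tested. Trpc2, a cation channel of vomeronasal sensory neurons in mouse, lies tail to tail with Art5, 14 bases apart. Its level was 0.738 RPKM in mutant and 2.58 RPKM in control ventricles (log2 fold change -1.81, adjusted p = 0.0234, from the authors' deposited table). The 8 other rows within 200 kb of Art1 (midpoint to midpoint) were not called, among them Nup98 at 1.87 RPKM in mutant and 1.68 RPKM in control ventricles.

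The surroundings of Art3 held called genes of both directions. Cxcl9, an interferon-induced chemokine whose gene lies head to head with Art3 at a distance of 3747 bases, fell to 0.0113 RPKM in mutant ventricles, against 0.473 RPKM in control ventricles (log2 fold change -5.39, adjusted p = 6.22e-05, from the authors' deposited table). Its read stand-in was 3.8 to 5.2 in mutant and 71 to 83 in control. Scarb2, a lysosomal membrane protein, rose to 20.8 RPKM in mutant ventricles, against 6.66 RPKM in control ventricles (log2 fold change 1.64, adjusted p = 0.0386, from the authors' deposited table). Nup54, the next gene past Art3, was listed at 1.42 RPKM in mutant and 1.69 RPKM in control ventricles without a call. The chemokine genes Cxcl10 and Cxcl11 and the pseudogene Gm2673 lie inside the Art3 span and were listed at 0.0188, 0.00409 and 0.00965 RPKM in mutant and 0.0264, 0.0143 and 0.0106 RPKM in control ventricles, none called.

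Beside Art4, Mgp rose as well. It codes for matrix Gla protein, an inhibitor of calcification, and lies 14702 bases from Art4 on the same strand. Mgp stood at 480 RPKM in mutant and 107 RPKM in control ventricles (log2 fold change 2.16, adjusted p = 0.0203, from the authors' deposited table). BC049715, on the other side of Art4, was listed at 0.0751 RPKM in mutant and 0.0969 RPKM in control ventricles, without a call. Over all members, 2 of 31 tested neighbours within 200 kb rose and 3 fell, which is 16.1% called against 3.51% of all tested rows. Genes of 1 locus are not independent, and no test was made of this share.

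**Figure D2:**
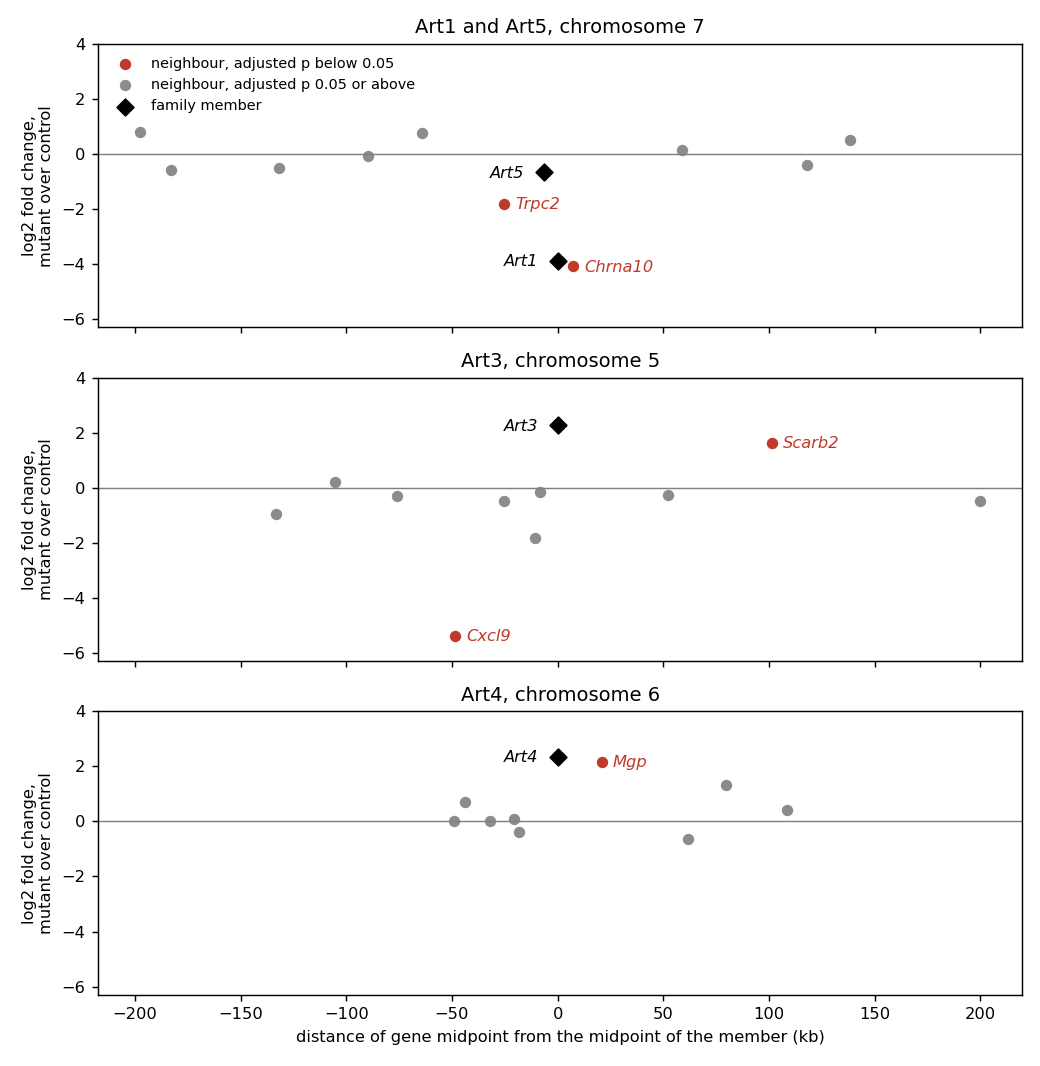
The log2 fold change of mutant over control (vertical axis) of each tested gene within 200 kb, against the distance in kb of its midpoint from that of Art1, Art3 or Art4; diamonds are family members and red points are neighbours with a deposited adjusted p below 0.05. Chrna10 at -4.08 lies beside Art1 at -3.89, Cxcl9 at -5.39 is opposite in sign to Art3, and Mgp at 2.16 lies beside Art4; Gucy2c, listed at 0 in control, is not drawn.

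The other genes around this reaction were described by lists of ADP-ribosylation, NAD and GPI-anchor genes, of surface targets and surface nucleotide enzymes, and of integrins and laminins of striated muscle. Of 105 tested genes in the lists, members left out, 4 rose and 1 fell, which is 4.76% called against 3.51% of all tested rows, or 5.28% of rows with a mean of at least 1 RPKM. Counts by p before adjustment and counts above or below control, given for lists and markers below, have no share over all tested rows beside them. They are a description and not a result about a list. The remaining family gene in the table, Art2b, was listed at 0 in both groups.

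Genes that remove or bind ADP-ribose, the counterpart of Art1, gave 0 calls among 10 by the authors' test, and for 0 of them was p before adjustment below 0.05. Adprh, the hydrolase that frees arginine of ADP-ribose, was listed at 12.4 RPKM in mutant and 9.37 RPKM in control ventricles. Its implied 95% interval on the log2 scale ran from -0.63 to 1.44. Adprhl1, a related heart protein, was the most abundant of the list, at 78.5 RPKM in mutant and 57.3 RPKM in control ventricles. Macrod1, a mitochondrial macrodomain protein, was listed at 21.4 RPKM in mutant and 23.1 RPKM in control ventricles. The median log2 fold change of the list was 0.23, next to 0.07 over all tested rows.

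Known surface targets of the family gave 0 calls among 7 by the authors' test, and p before adjustment was below 0.05 for 1 of them, Itgal. Itga7, the integrin that Art1 modifies, was listed at 61.6 RPKM in mutant and 27.1 RPKM in control ventricles (p = 0.0529, adjusted p = 0.408 in the authors' deposited table). Its partner Itgb1 was listed at 112 RPKM in mutant and 58.2 RPKM in control ventricles, and the growth factor gene Pdgfb at 9.29 RPKM in mutant and 10.5 RPKM in control ventricles. The median log2 fold change of these targets was 0.20. Of 12 integrin and laminin genes of striated muscle 1 rose and none fell, with a median of 0.41. That gene was Itgb5, an integrin subunit that pairs with alpha V, at 31.2 RPKM in mutant and 6.33 RPKM in control ventricles (adjusted p = 0.00154 in the authors' deposited table). For 3 of the 12, Itgb5 and Itga3 on the higher and Itga6 on the lower side, p before adjustment was below 0.05 by the authors' test. The laminin gene Lamb2 stood at 35.3 RPKM in mutant and 37.5 RPKM in control ventricles.

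Among 11 enzymes and channels that handle NAD and nucleotides at the surface, 2 rose and none fell, with a median log2 fold change of 1.0. Of the 11, 7 stood above control and 4 below, and p before adjustment was below 0.05 for 5 by the authors' test. Nt5e, the ecto-nucleotidase CD73 that makes adenosine and is GPI-anchored like Art1, rose to 9.74 RPKM in mutant ventricles, against 2.67 RPKM in control ventricles (adjusted p = 0.00995 in the authors' deposited table). Panx1, a channel that releases ATP, rose to 2.56 RPKM in mutant ventricles, against 0.580 RPKM in control ventricles (adjusted p = 0.0117 in the authors' deposited table). Entpd1, Enpp1 and Bst1 were higher too, without a call. They stood at 6.18, 1.35 and 0.455 RPKM in mutant and 2.26, 0.537 and 0.124 RPKM in control ventricles. Their p before adjustment was 0.00468, 0.0115 and 0.037 by the authors' test, and the adjusted p was 0.0967, 0.172 and 0.341. Cd38, which splits NAD outside the cell, was listed at 2.40 RPKM in mutant and 4.63 RPKM in control ventricles without a call (p = 0.0620, adjusted p = 0.441 in the authors' deposited table). Gja1, the gap junction protein connexin 43, was listed at 43.1 RPKM in mutant and 78.3 RPKM in control ventricles, and the ectonucleotidase Entpd2 at 7.89 RPKM in mutant and 6.57 RPKM in control ventricles, neither called.

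Of 16 genes of NAD synthesis and use 1 rose and none fell, with a median log2 fold change of -0.32. Itgb1bp3, the nicotinamide riboside kinase of muscle also named Nmrk2, stood at 36.9 RPKM in mutant and 12.1 RPKM in control ventricles, and the adjusted p of 0.0493 in the authors' deposited table lay just under the threshold. Nnt, the mitochondrial transhydrogenase, was listed at 11.5 RPKM in mutant and 16.2 RPKM in control ventricles, and Nampt, which makes nicotinamide mononucleotide, at 10.3 RPKM in mutant and 6.90 RPKM in control ventricles. Of 28 genes that build and attach GPI anchors 1 fell and none rose, with a median of -0.21. Before adjustment p was below 0.05 for 3 of them, Pigh on the lower and Pigs and Pigt on the higher side. By the authors' test p before adjustment was 0.0142 for Pigs and 0.0148 for Pigt. Pigs was listed at 5.77 RPKM in mutant and 2.39 RPKM in control ventricles. Pigh, a subunit of the enzyme of the first step of anchor synthesis, fell to 0.507 RPKM in mutant ventricles, against 2.61 RPKM in control ventricles (log2 fold change -2.36, adjusted p = 0.00409, from the authors' deposited table). Gpaa1, Pigt and Pigq, the most abundant of this list, were listed at 7.79, 10.2 and 6.39 RPKM in mutant and 8.96, 4.38 and 6.47 RPKM in control ventricles.

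The intracellular ADP-ribosylating family gave no call. The 16 PARP genes had 0 calls by the authors' test. Before adjustment p was below 0.05 for 2 of them, Parp2 on the lower and Tnks on the higher side. Of the 16, 14 stood below control, with a median log2 fold change of -0.43. Parp2 was listed at 3.34 RPKM in mutant and 7.72 RPKM in control ventricles, Parp3 at 6.84 RPKM in mutant and 6.99 RPKM in control ventricles, and Tnks2 at 6.41 RPKM in mutant and 5.47 RPKM in control ventricles. The 7 sirtuins, which use NAD as well, had 0 calls by the authors' test, also before adjustment, and a median log2 fold change of -0.22. Sirt2 was listed at 7.79 RPKM in mutant and 7.98 RPKM in control ventricles, Sirt3 at 7.22 RPKM in mutant and 8.32 RPKM in control ventricles, and Sirt7 at 3.31 RPKM in mutant and 3.86 RPKM in control ventricles.

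**Figure D3:**
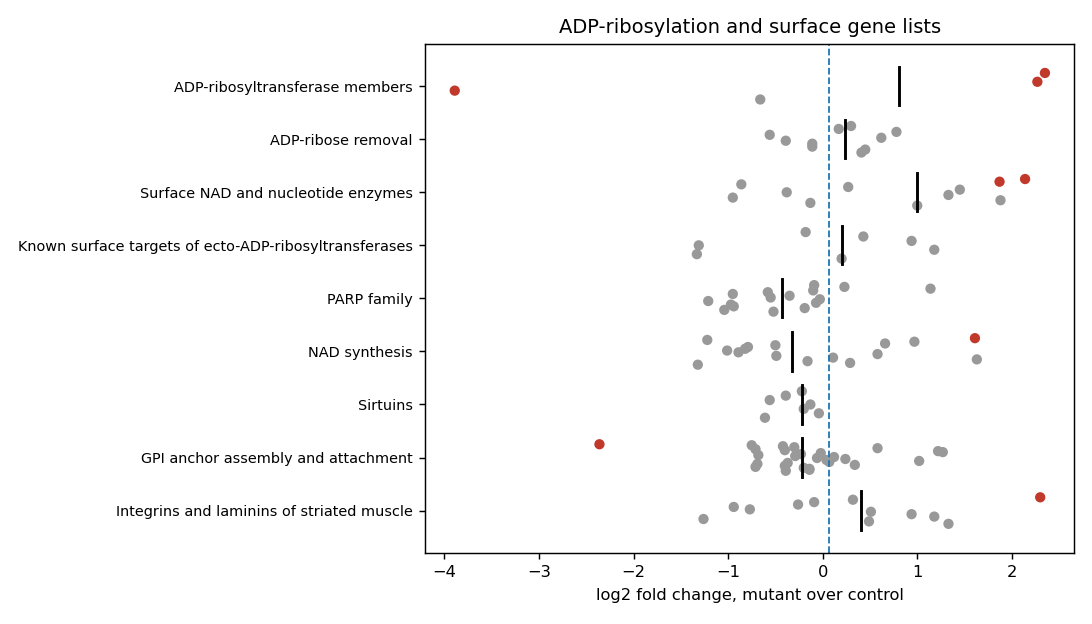
The log2 fold change of mutant over control (horizontal axis) of each tested gene in the family and in 8 gene lists; red points have a deposited adjusted p below 0.05, black bars are list medians and the dashed line is the median of all tested rows, 0.07. Art1 at -3.89 lies lower than every other gene drawn, and the PARP median of -0.43 and the surface enzyme median of 1.0 are the lowest and highest list medians outside the family.

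Markers of cells in which the members are known were read beside them. Markers of fast and embryonic skeletal muscle, where Art1 is also expressed, summed to 14.7 RPKM in mutant and 4.33 RPKM in control ventricles over 16 genes, with Myog and Myod1 at 0 in both groups. Of these, Mybpc2 rose to 13.6 RPKM in mutant ventricles, against 2.31 RPKM in control ventricles, and Tnni2 fell to 0.0633 RPKM in mutant ventricles, against 1.03 RPKM in control ventricles. Mybpc2 makes up most of the mutant sum and much of the control sum, so the higher sum reflects that gene and not the list. It is the only 1 of the 16 with a mean of at least 1 RPKM. Of 14 tested skeletal muscle markers 8 stood above control and 6 below. Cardiomyocyte markers summed to 10487 RPKM in mutant and 10358 RPKM in control ventricles over 12 genes, none called and 1 with p below 0.05 before adjustment, so both groups carry the markers of heart muscle. Of these 12 markers 10 stood below control, with a median log2 fold change of -0.44, while Actc1, the cardiac actin, was listed at 4530 RPKM in mutant and 2380 RPKM in control ventricles and makes up much of both sums. The part of heart muscle cells in the Art1 value was not tested. Red blood cell markers, relevant to Art4, summed to 307 RPKM in mutant and 177 RPKM in control ventricles. Of 11 such markers 10 stood above control and 0 were called, with p below 0.05 before adjustment for 1. Macrophage markers summed to 225 RPKM in mutant and 77.8 RPKM in control ventricles, with all 10 above control and a median log2 fold change of 1.18. Of these, 1 was called, Lyz2, and p before adjustment was below 0.05 for 5. The part of these cells in the Art4 value was not tested. T cell markers, relevant to Art2b, summed to 0.969 RPKM in mutant and 0.989 RPKM in control ventricles. Endothelial markers summed to 146 RPKM in mutant and 140 RPKM in control ventricles. Of 8 endothelial markers 5 stood below control, with a median log2 fold change of -0.42, and 1, Vwf, was called and higher. Fibroblast markers summed to 829 RPKM in mutant and 615 RPKM in control ventricles, with none called and 3 with p below 0.05 before adjustment. Atrial markers summed to 4400 RPKM in mutant and 102 RPKM in control ventricles, where 1 gene of 6, Nppa, was called and held 4370 RPKM of the mutant sum. The mutant sum thus reflects Nppa and not the list. Of the 6 atrial markers 3 stood below control, with a median log2 fold change of -0.29. Before adjustment p was below 0.05 for 3 of them, Nppa on the higher and Sln and Tbx5 on the lower side.

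With only 2 group values, likeness to a member means a like level in both groups. It was measured as the Euclidean distance in log2(RPKM + 0.1) over mutant and control, among protein coding genes. The 5 nearest to Art1 were Ybx2, Sned1, Kcnip2, Asb14 and Zfp950, at distances from 0.41 to 0.93. Ybx2, at 1.21 RPKM in mutant and 13.4 RPKM in control ventricles, came nearest, while Zfp950 stood at 1.56 RPKM in mutant and 9.78 RPKM in control ventricles. The 5 nearest to Art3 were Clic5, Fxyd6, Glul, Csrp1 and 2310022B05Rik, at distances from 0.19 to 0.30, with Clic5 at 48.0 RPKM in mutant and 10.1 RPKM in control ventricles. The distances to Art1 were thus larger than those to Art3, and these values carry no test.

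**Figure D4:**
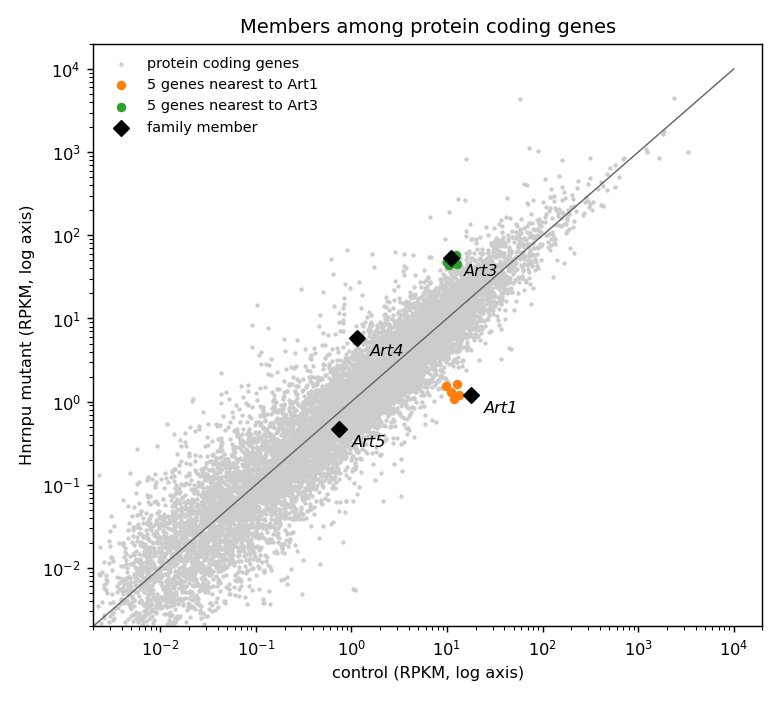
Level in Hnrnpu mutant (vertical) against control ventricles (horizontal), both in RPKM on log axes, for protein coding genes above 0 in both groups; diamonds are the family, coloured points the 5 genes nearest to Art1 and to Art3, and the line marks equal levels. Art1 lies below the line, at 1.20 RPKM in mutant and 17.8 RPKM in control, and Art3 and Art4 above it.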

How the data were processed

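Per the file headers, the deposited table holds the authors' RPKM for mutant and control (1 value per group), the ratio (fold) of the mutant to the control value, that ratio as log2, and p-values before and after adjustment. Per the submitters' processing notes, Bowtie 0.12.9, DESeq (no version) and the build mm9 were used, with no roles stated. How reads were counted, on which annotation and whether by strand is not given in the sources used here. Values per animal were not analysed here, which leaves no model over replicates to fit, and the authors' deposited test was taken with a threshold of 0.05.

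Rows at 0 in both groups (12360 of 36814) carry no adjusted p and were left out. The deposited fold was within 0.971% of the RPKM ratio where both groups reached 1 RPKM, and a repeated Benjamini-Hochberg adjustment was within 0.593% of the deposited one. The adjustment was tested on simulated data. The implied error was run on the same data, whose p-values came from the normal formula that it inverts. That run cannot show how well the intervals fit the authors' test. In rows of small RNA genes, RPKM times length stepped by 0.00654 and 0.00897 in mutant and 0.0171 and 0.0201 in control, with all 168 and 143 values under 2 reads within 3% of a step. RPKM times exonic length, divided by the larger and the smaller step, gave the lower and the upper read number, with RPKM taken as scaled by mapped reads and averaged in the same way over libraries.

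Members and lists were chosen with earlier results of these data known. Named genes were the members, called neighbours within 200 kb with the nearest and overlapping rows, called list genes with the 3 most abundant of each list, and the 5 nearest genes by level. Others that are named, among them Nup98, Itgal, Itga3, Itga6, Cd38, Entpd1, Enpp1, Bst1, Pigs, Tnks and marker genes, were chosen after their values were seen. Python 3.11.15, pandas 2.3.3, scipy 1.17.1 and Biopython 1.88 were used. Promoters are from RefSeq (GRCm38.p6), with all 4 members matched by symbol.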

Additional observations from a re-analysis of the deposited data

How the results depend on the processing

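The deposited log2 fold changes of the 4 members stayed inside their implied intervals with 0.1 or 1 added to RPKM. They also did so with the protein coding median of 0.07 subtracted. Their signs could not change under these settings, so the signs are no check. The same amount was added to both groups, and each log2 fold change was larger in size than 0.07. Summing the rows of a symbol could not change the values either, since each member has 1 row. Art1 ranged from -3.96 to -3.10. The count of called neighbours was 5, against 3 when p was adjusted over rows with a mean of at least 1 RPKM, because Chrna10 and Cxcl9 fall under that level. It was 4 of 19 tested within 100 kb (21.1%) and 6 of 63 within 500 kb (9.52%), against 16.1% within 200 kb. Over all rows, 859 calls became 1203 at a threshold of 0.1, and the 5 calls among the list genes became 6. With RPKM multiplied by exonic length, Art1 made up 1.48% of the family in mutant and 51.2% in control ventricles, and Art3 44.3% in control. No paired analysis was possible because the table holds 1 value per group, and leaving out replicates was not run for the same reason. Low read numbers limit Chrna10, Cxcl9 and Art5.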

Other observations

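Sycp3, a protein of the meiotic chromosome axis, was read as a testis marker beside Art3 and Art5, which are also expressed in testis. It fell to 2.59 RPKM in mutant ventricles, against 9.26 RPKM in control ventricles (adjusted p = 0.0331 in the authors' deposited table). The 8 germ cell markers summed to 2.67 RPKM in mutant and 9.40 RPKM in control ventricles, and of them Tnp1, Tnp2, Prm2 and Acrv1 were listed at 0 in both groups. Nearly all of each sum was Sycp3, so the sums reflect that gene and not the list. Of the 4 tested germ cell markers 2 stood above control and 2 below. Past 200 kb from Art3, Stbd1, which binds glycogen, rose to 19.0 RPKM in mutant ventricles, against 4.32 RPKM in control ventricles (adjusted p = 0.00235 in the authors' deposited table). Both genes were picked after their values were seen.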
